A study of Mus musculus with 6 samples.

Results

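Matrix metalloproteases (Mmp), membrane proteases of the ADAM family (Adam), their secreted relatives with thrombospondin repeats (Adamts) and the tissue inhibitors of metalloproteases (Timp) were examined in CT26 tumors. CT26 cells derive from a colon carcinoma of a BALB/c mouse. The genes were taken by name, as every symbol of the deposited table that begins with Mmp, Adam, Adamts or Timp followed by a number. This gave 80 of 23557 genes, namely 23 Mmp, 34 Adam, 19 Adamts and 4 Timp genes. The question was whether their transcript levels differed between tumors of mice given H89 and of mice given NaCl.

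Female BALB/c mice, 7 weeks old when obtained, carried tumors grown from 500000 CT26 cells injected under the skin. Treatment began on day 6 with 2 intraperitoneal injections a week, of NaCl alone or of H89 dissolved in it at a dose of 10 mg/kg. H89 is an inhibitor of protein kinase A that also acts on other kinases. Tumors were taken on day 14, 3 of each group, and total RNA of the whole tumor was sequenced, so that the host's cells are included with the carcinoma cells. In bulk RNA, fewer cells of a type and less RNA per cell cannot be told apart. All tumors came from a single cell line in a single strain, and the labels number the tumors within each group without naming a batch.

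The MMPs are zinc-dependent proteases, secreted or held at the cell surface, that are made as inactive precursors and degrade collagens, gelatin, proteoglycans and elastin. The ADAMs cut the ectodomains of membrane proteins and so release growth factors and cytokines, and the ADAMTS proteases act on proteoglycans, procollagens and microfibrils of the matrix. The TIMPs occupy the active site of these enzymes and hold them in check. In tumors they are known for the turnover of the matrix through which carcinoma, stromal and immune cells move.

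The estimated counts of a tumor summed to between 27067349 and 31958793, of which the 80 genes held 0.21% to 0.276%. Levels are given as counts in a library of 1000000 (CPM) after scaling by TMM factors, which remove differences in composition between libraries. A gene was tested when its mean over the 6 tumors reached 0.5 CPM, which 43 of the 80 genes did (16 Mmp, 13 Adam, 11 Adamts and 3 Timp). Of the 37 others, 14 were at 0 in all tumors, where a floor of 3 counts corresponds to 0.0912 to 0.112 CPM depending on the library. These were Mmp7, Mmp20 and 12 Adam genes, most of them known from testis (Adam18, Adam20, Adam24, Adam25, Adam26a, Adam26b, Adam29, Adam30, Adam34, Adam34l, Adam39 and Adam6b). The other 23 genes, Timp4, Mmp1a and Mmp1b among them, had counts in some tumor, the highest value being 0.71 CPM. The filter acted through 1 group for Adam23, whose NaCl mean was 0.318 CPM, and for Mmp10, whose H89 mean was 0.465 CPM.

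Per kb of exon, the inhibitors were by far the most abundant of these transcripts. The length used was that of all annotated exons of a gene merged, which can exceed a single transcript, and the order rests on it. Mmp12, with 7237 bases of exon, was at 54.4 CPM on average and 7.52 CPM per kb. Timp1, a secreted inhibitor of most soluble MMPs that also has cytokine-like activity, reached 603 CPM per kb on average. Timp2, an inhibitor that also takes part in the activation of pro-MMP2 by MMP14, reached 196 CPM per kb. The next were Mmp3 (stromelysin-1) at 36.2, the sheddases Adam15 at 31.0 and Adam9 at 30.6, Adam33 at 20.4 and the membrane-type collagenase Mmp14 at 19.8 CPM per kb. Adam8, known from leukocytes, followed at 17.5 and Adam10, the main sheddase of Notch, at 14.7 CPM per kb. From Mmp3 to Adam9 and from Adam33 to Adam10 the single tumors overlapped, so that neighbours in this order did not differ beyond their spread. Timp1 and Timp2 together made up 54.0%, 56.8% and 55.6% of the CPM of all 80 genes in NaCl tumors 1 to 3, and 46.8%, 50.1% and 44.2% in H89-treated tumors 1 to 3.

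**Figure D1:**
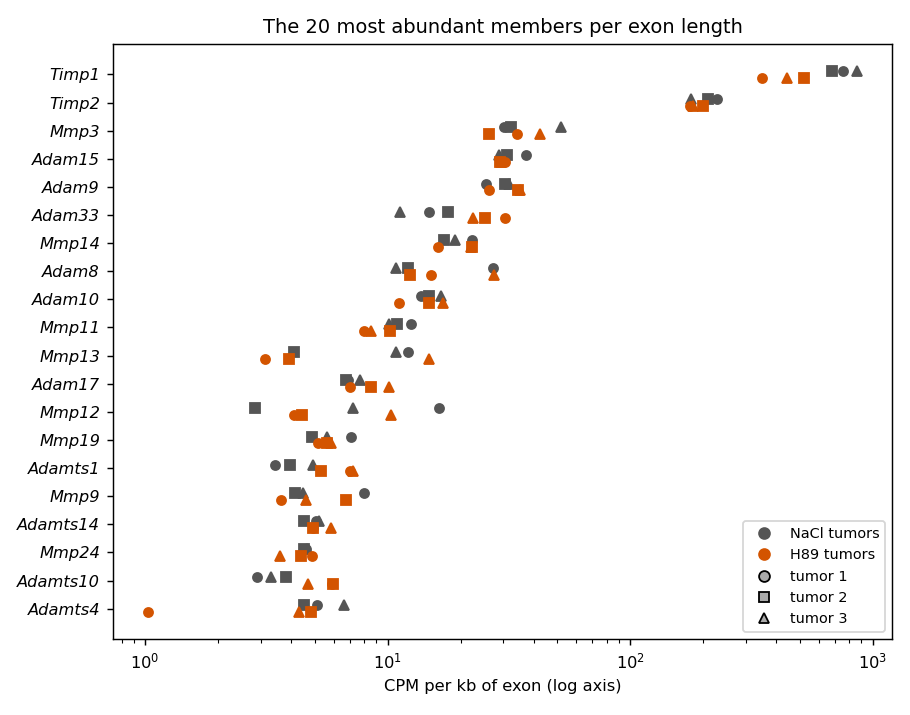
Level in CPM per kb of exon (log axis) of the 20 most abundant genes, grey for NaCl and orange for H89-treated tumors, with the symbol shape giving the tumor number. Timp1 and Timp2 stand to the right of all others, and for Timp1, Adam33, Adamts1 and Adamts10 the colours separate.

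Against this background, Adamts10 was the only gene of the 43 tested that passed the threshold of a Benjamini-Hochberg adjusted p under 0.05 over all 13118 genes tested, and it rose. No member passed it in the other direction. Over all genes, 113 (0.861%) were called higher in H89-treated tumors, 95 (0.724%) lower and 208 (1.59%) in either direction. At an unadjusted p under 0.05, 8 of the 43 tested members (18.6%) were higher, where 13.1% of all genes were, and 6 (14.0%) were lower, where 11.9% of all genes were. In all, 32.6% of the tested members and 25.0% of all tested genes had such a p. The groups did not overlap for 9 members in the higher and 4 in the lower direction (30.2%), and for 15.2% and 15.5% of all genes (30.6% in all). The median log2 fold change of the members was 0.05, and that of all genes 0.004. Of the 14 genes with an unadjusted p under 0.05, 8 kept it with any tumor left out (Timp1, Mmp8, Mmp10, Adam1a, Adam33, Adamts1, Adamts6 and Adamts10). DESeq2 called 4 members higher (5.32% of all genes) and 2 lower (5.30%), in all 14.0% of the members and 10.6% of all genes.

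The direction of these genes is given by family, without a test of the difference between families. Of 16 tested Mmp genes, 1 was higher and 5 were lower at the unadjusted threshold, where 13.1% and 11.9% of all genes were. Their median log2 fold change was -0.15. The 13 tested Adam genes had 3 higher and 0 lower (median 0.27), and the 11 tested Adamts genes 4 higher and 0 lower (median 0.21). The 3 tested Timp genes had 0 higher and 1 lower (median -0.14). With each tumor left out in turn, the Mmp median ran from -0.29 to 0.03, the Adam median from 0.25 to 0.40, the Adamts median from 0.03 to 0.62 and the Timp median from -0.42 to -0.06. The Mmp median thus changed sign, without NaCl tumor 1. The Adamts median did so with a stricter filter of 5 CPM, where it was -0.18, and was 0.06 with quantile normalization.

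**Figure D2:**
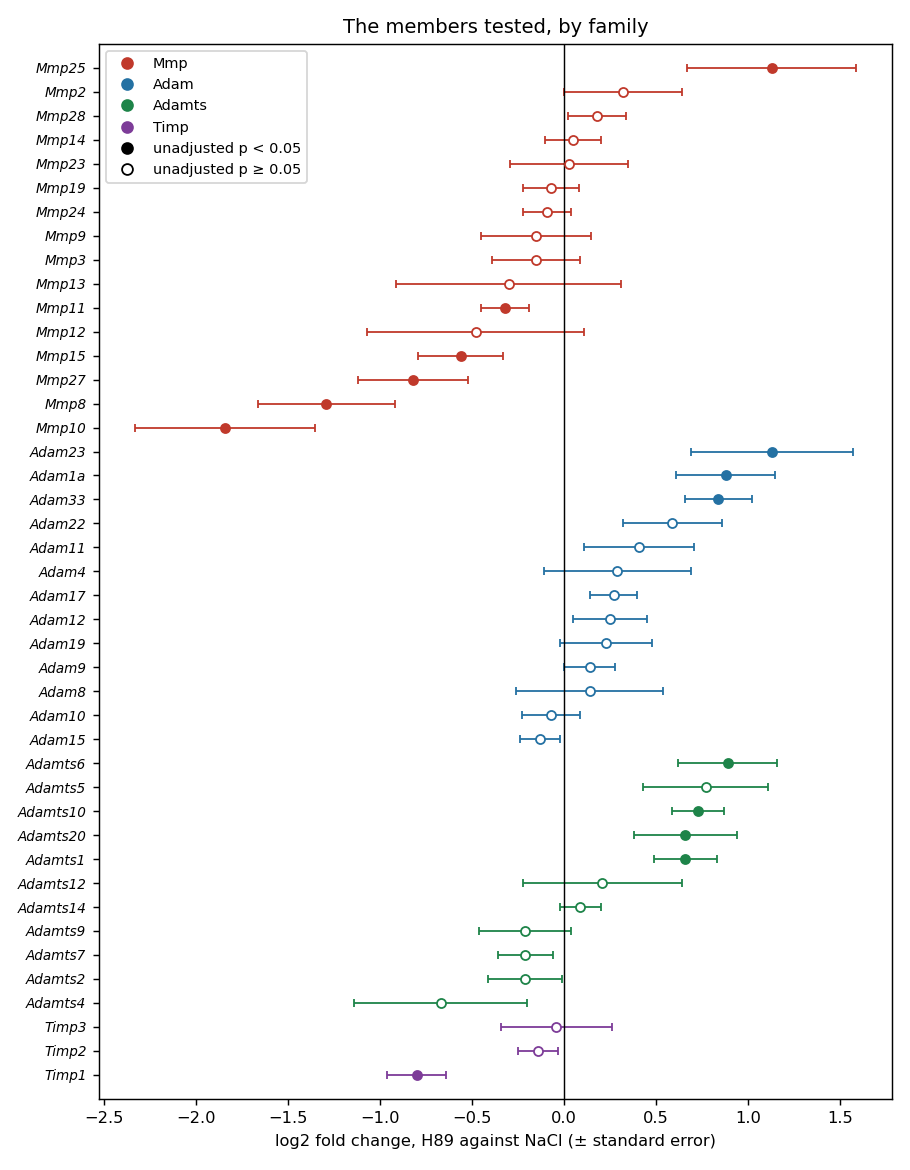
Log2 fold change of H89 against NaCl, with its standard error, for the 43 tested genes grouped by family, filled where the unadjusted p is under 0.05. The filled points are 8 to the right and 6 to the left of 0, with the Mmp points mostly on the left and the Adamts points on both sides.

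Among the inhibitors, Timp1 (chromosome X, 20870166 to 20874735, plus strand, GRCm38) gave the lowest unadjusted p of all members below 0. Its level was 673, 603 and 766 CPM in NaCl tumors 1 to 3 and 311, 464 and 396 CPM in H89-treated tumors 1 to 3. Every H89-treated tumor was below every NaCl tumor, with means of 681 ± 82.0 and 391 ± 76.6 CPM (SD, n = 3 each). The log2 fold change was -0.80 with a standard error of 0.16, and the adjusted p of edgeR's quasi-likelihood test was 0.0517, just beyond the threshold. Over 15 alternative settings the adjusted p of Timp1 ran from 5.9e-05 to 0.151 and was under 0.05 in 5. Without H89-treated tumor 1, the lowest, the log2 fold change was -0.66, and the unadjusted p stayed under 0.05 with any tumor left out.

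The other inhibitors did not separate. Timp2 was at 887, 815 and 698 CPM in NaCl tumors and at 689, 781 and 706 CPM in H89-treated tumors, with a log2 fold change of -0.14 (adjusted p = 0.455). Timp3, a matrix-bound inhibitor that also acts on ADAM17 and on ADAMTS proteases, was at 28.3, 17.3 and 19.1 CPM and at 14.0, 18.3 and 30.8 CPM (adjusted p = 0.950). For both, the groups overlapped. The ratio of Timp1 to Timp2 was 0.759, 0.739 and 1.10 in NaCl and 0.452, 0.595 and 0.562 in H89-treated tumors, and the ratio of Mmp14 to Timp1 was 0.198, 0.169 and 0.148 against 0.307, 0.286 and 0.333. Neither ratio overlapped between groups, and Timp1 is the term of both that separated on its own.

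Summed over the family, the Timp genes held 1589, 1436 and 1483 CPM in NaCl tumors and 1014, 1263 and 1133 CPM in H89-treated tumors. This sum did not overlap between the groups. Most of it was Timp1, which separated on its own, and Timp2, which did not. The Mmp sum was 486, 304 and 406 against 305, 353 and 431 CPM, and the Adam sum 678, 617 and 579 against 662, 686 and 758 CPM. The Adamts sum was 138, 141 and 165 against 153, 182 and 174 CPM. For each of these 3 families the sums of the groups overlapped. The ratio of the Mmp sum to the Timp sum overlapped when taken on CPM (0.212 to 0.306 in NaCl and 0.279 to 0.380 in H89-treated tumors). Per kb of exon it did not (0.0996 to 0.125 and 0.129 to 0.191), so that its separation depends on the scale. Per kb, Timp1 was the largest term of the Timp sum, at 603 CPM per kb on average against 196 for Timp2.

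**Figure D3:**
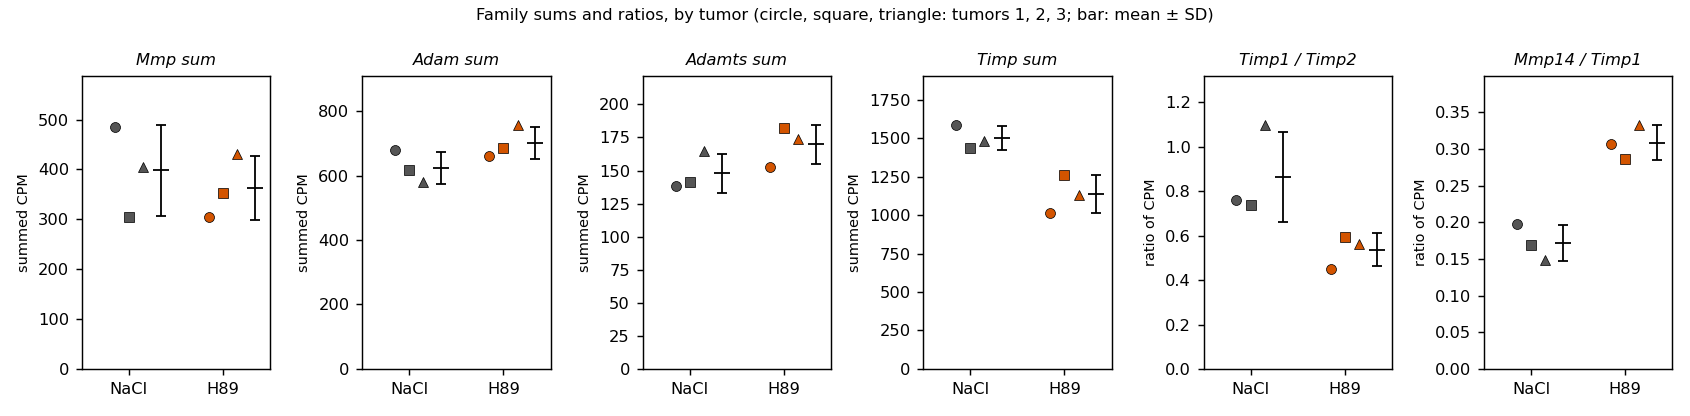
Summed CPM of each family and the ratios of Timp1 to Timp2 and of Mmp14 to Timp1 in every tumor, with the mean and SD of each group beside the points. The Timp sum and both ratios separate the groups, and the Mmp, Adam and Adamts sums do not.

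Of the secreted collagenases and stromelysins, the genes with the largest differences were among the least abundant. Mmp10 (stromelysin-2) was at 2.37, 1.01 and 1.72 CPM in NaCl tumors and at 0.178, 0.548 and 0.669 CPM in H89-treated tumors. Mmp8, the collagenase best known from neutrophils, was at 2.23, 0.932 and 1.54 against 0.677, 0.486 and 0.760 CPM. Mmp27 was at 0.935, 1.23 and 1.10 against 0.453, 0.790 and 0.578 CPM. In all 3 genes every H89-treated tumor was below every NaCl tumor, as was the case for 15.5% of all genes tested. These 3 had the smallest unadjusted p of the Mmp family. Mmp10 passed the filter only through the NaCl tumors, its H89 mean being 0.465 CPM. The log2 fold changes were -1.84 ± 0.49 for Mmp10, -1.29 ± 0.37 for Mmp8 and -0.82 ± 0.30 for Mmp27 (standard error), with adjusted p-values of 0.0843, 0.10 and 0.149 by edgeR. With any tumor left out, the unadjusted p of Mmp10 and of Mmp8 stayed under 0.05, while that of Mmp27 did so in 2 of 6 cases.

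For the more abundant Mmp3, Mmp12 and Mmp13 the groups overlapped. Mmp3 was at 54.1, 58.1 and 93.3 CPM in NaCl tumors and at 61.6, 47.4 and 76.6 CPM in H89-treated tumors (log2 fold change -0.15, standard error 0.24). Mmp12, the macrophage elastase, was at 118, 20.5 and 52.0 against 29.8, 32.1 and 74.6 CPM, and Mmp13 (collagenase-3) at 32.3, 11 and 28.9 against 8.38, 10.5 and 39.7 CPM. Adam8, a sheddase of leukocytes, was also uneven within the groups, at 126, 56.3 and 50.0 against 69.9, 57.7 and 128 CPM. In Mmp12, Mmp13 and Adam8 the highest tumor of each group was NaCl tumor 1 and H89-treated tumor 3, and within a group the highest was up to 5.75 times the lowest. The summed level of 10 macrophage markers was 2019 to 3091 CPM in NaCl tumors, with NaCl tumor 1 the lowest, and 2355 to 2858 CPM in H89-treated tumors. Its part in these values was not tested. The log2 fold change of Mmp12 was -0.48, and ran from -1.04 without H89-treated tumor 3 to 0.33 without NaCl tumor 1. That of Mmp13 was -0.30, and was -1.35 without H89-treated tumor 3 (adjusted p = 0.167 by edgeR) and 0.06 without H89-treated tumor 1. Both values thus turned on single tumors. The gelatinases overlapped too, Mmp2 at 4.92 to 11.2 against 6.72 to 11.5 CPM and Mmp9 at 14.7 to 28.3 against 12.8 to 23.8 CPM.

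Mmp10, Mmp8 and Mmp27 lie side by side in a run of Mmp genes on chromosome 9, which spans 7272514 to 7699585 (GRCm38, 427 kb) and holds 10 genes in the order Mmp13, Mmp12, Mmp1b, Mmp3, Mmp1a, Mmp10, Mmp8, Mmp27, Mmp20 and Mmp7. Of these, 6 were tested, and all 6 had a log2 fold change below 0, with a median of -0.65. The median was -0.02 for the 10 tested Mmp genes elsewhere and 0.004 for all genes tested. The run was not a group planned in advance, and its difference from the other Mmp genes was not tested. Mmp10, its lowest value, passed the filter only through the NaCl tumors. With single tumors left out, Mmp10, Mmp8 and Mmp27 stayed below 0. Mmp12 rose to 0.33 without NaCl tumor 1, Mmp13 to 0.06 without H89-treated tumor 1 and Mmp3 to 0.14 without NaCl tumor 3. The summed level of the run was 210, 92.7 and 179 CPM in NaCl tumors and 101, 91.8 and 193 CPM in H89-treated tumors, and these overlapped. The sum is carried by Mmp3, Mmp12 and Mmp13 and the median by the low genes. Since exons of Mmp12 overlap Mmp1b on the opposite strand, reads of the 2 genes may be shared.

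**Figure D4:**
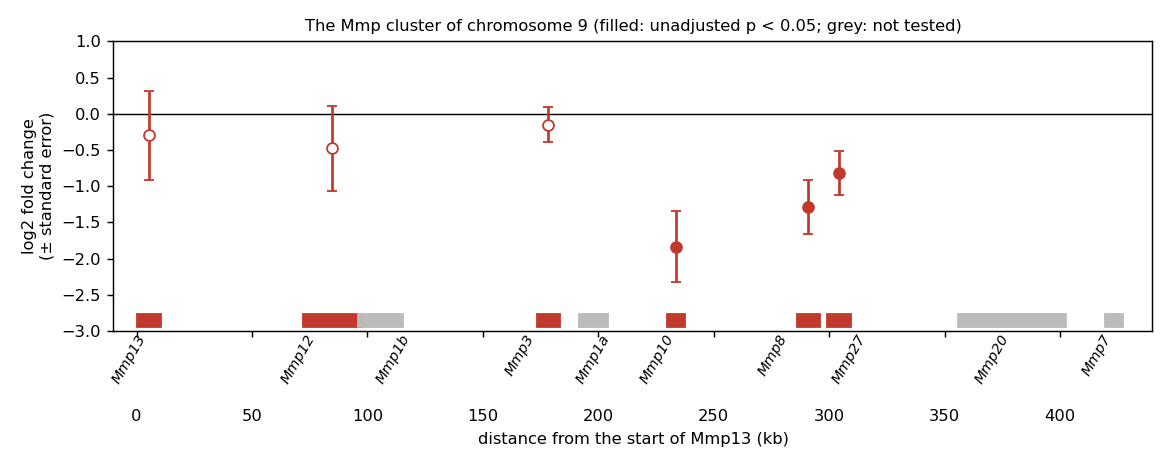
Log2 fold change with its standard error for the tested genes of the chromosome 9 run, placed by distance in kb from the start of Mmp13, with gene bodies as bars below. All 6 points are under 0, and the 3 filled ones (Mmp10, Mmp8 and Mmp27) are neighbours.

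The sequences before the starts of these genes are shown because several hold a site long known from MMP promoters. AP-1, a dimer of Fos and Jun proteins, binds TGAGTCA or TGACTCA, which was searched on both strands in the window from 250 bases before to 50 after each start (RefSeq, GRCm38.p6). The motif was found in 1607 of 27025 genes (5.95%), in 10 of the 50 members with a window, in 7 of the 10 genes of the run and in 3 of the 40 others. Each line gives 120 bases that stop 5 bases short of the start, on the plus strand, with the AP-1 motif in capitals.
Mmp13: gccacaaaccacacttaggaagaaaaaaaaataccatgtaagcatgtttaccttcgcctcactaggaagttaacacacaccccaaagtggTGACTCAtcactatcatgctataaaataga
Mmp3: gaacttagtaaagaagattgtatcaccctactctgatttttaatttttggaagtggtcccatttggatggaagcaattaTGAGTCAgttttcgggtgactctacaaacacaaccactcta
Mmp10: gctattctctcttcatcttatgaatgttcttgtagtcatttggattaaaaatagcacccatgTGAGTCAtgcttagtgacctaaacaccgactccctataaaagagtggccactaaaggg
Mmp8: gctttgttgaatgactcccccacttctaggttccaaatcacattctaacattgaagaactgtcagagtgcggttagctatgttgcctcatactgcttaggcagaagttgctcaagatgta
Mmp27: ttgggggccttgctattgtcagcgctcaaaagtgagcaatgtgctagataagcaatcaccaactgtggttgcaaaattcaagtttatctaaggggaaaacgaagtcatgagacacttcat
The windows are chr9:7272389-7272508, chr9:7445697-7445816, chr9:7502217-7502336, chr9:7558304-7558423 and chr9:7571271-7571390. The first base of the motif lies 35 bases before the start of Mmp13, 46 before that of Mmp3 and 63 before that of Mmp10. Mmp10, whose groups separated, and Mmp13 and Mmp3, whose groups overlapped, share the motif. Mmp12, whose groups also overlapped and whose line is not shown, has it 44 bases before the later of its 2 starts and not before the earlier. Mmp8 and Mmp27, whose groups separated too, have no such letters in the window. The cyclic AMP response element TGACGTCA, the site of the protein kinase A target CREB, was in 2.03% of all genes and in 0 of the 50 members. The box TATAAA, searched on the transcribed strand, was in 8 of the 10 genes of the run and in 9.77% of all genes.

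Of the remaining MMPs, 3 had an unadjusted p under 0.05 with groups that overlapped. Mmp11 (stromelysin-3), an MMP that furin activates inside the cell, was at 34.7, 30.4 and 28.0 against 22.2, 28.4 and 23.8 CPM, with a log2 fold change of -0.32. Its exons overlap Chchd10 on the opposite strand. Mmp15, a membrane-type MMP, was at 6.33, 7.57 and 10.2 against 4.46, 6.72 and 5.11 CPM (log2 fold change -0.56). Mmp25, a membrane-anchored MMP of leukocytes, was the only Mmp gene with such a p on the higher side, at 2.63, 1.62 and 0.841 against 2.33, 3.10 and 5.72 CPM (log2 fold change 1.13). H89-treated tumor 3 was its highest, and without it the log2 fold change was 0.68 with an unadjusted edgeR p of 0.169. The adjusted p-values were 0.172, 0.183 and 0.182. Mmp14, the most abundant membrane-type MMP, was at 134, 102 and 113 against 95.7, 133 and 132 CPM, with overlapping groups (log2 fold change 0.05, standard error 0.15).

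Markers of leukocytes are given beside Mmp8 and Mmp25, both known from neutrophils. Of 11 neutrophil markers, 4 were tested and none was called. Their summed level was 16.4 to 20.7 CPM in NaCl and 20.6 to 35.0 CPM in H89-treated tumors, with tumor 3 the highest. Ly6g was at 0 in all tumors, and Elane, Mpo and Camp did not exceed 0.305 CPM. Csf3r, a receptor that monocytes also carry, was the most abundant in H89-treated tumors, at 7.70 to 10.5 against 15 to 22.8 CPM (adjusted p = 0.0682). The neutrophil alarmins S100a8 and S100a9 were at 0.820 to 1.46 against 0.213 to 1.37 CPM and at 1.27 to 4.20 against 0.213 to 3.74 CPM, with log2 fold changes of -0.85 and -0.70 (adjusted p = 0.421 and 0.670). Cxcr2 was at 4.22 to 5.36 against 4.88 to 6.56 CPM. Of those under the filter, Retnlg was at 0.0746 to 0.146 against 0 to 0.0608 CPM. Ltf went the other way, at 0.036 to 0.0731 against 0.152 to 0.356 CPM, and Ngp overlapped. The markers thus did not share a direction. Of 8 T cell markers, all tested, 5 (62.5%) were higher at an unadjusted p under 0.05, where 13.1% of all genes were. None of the 8 markers passed the adjusted threshold, and for each of them the groups overlapped. Their summed level was 36.0, 20.5 and 16.4 CPM in NaCl and 55.4, 30.8 and 77.6 CPM in H89-treated tumors, which overlapped, and as for Mmp25 the highest tumor of each group was NaCl tumor 1 and H89-treated tumor 3. The part of these cells in Mmp8 and Mmp25 was not tested.

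In the ADAM family, Adam33 stood out. Adam33 (chromosome 2, 131050591 to 131063814, minus strand) is a protease of mesenchymal cells, known from studies of asthma. It was at 79.9, 95.7 and 60.9 CPM in NaCl tumors and at 165, 136 and 122 CPM in H89-treated tumors. Every H89-treated tumor was above every NaCl tumor, with means of 78.8 ± 17.4 and 141 ± 21.8 CPM (SD, n = 3 each). The log2 fold change was 0.84 ± 0.18 (standard error), the adjusted p of edgeR was 0.0608, and over 15 alternatives it ran from 0.000184 to 0.149. The unadjusted p stayed under 0.05 with any tumor left out.

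The sheddases with the widest substrate range did not separate. Adam10, the Notch sheddase, was at 67.2, 72.5 and 81.8 against 54.4, 72.7 and 83.5 CPM. Adam17, which releases tumor necrosis factor and ligands of the epidermal growth factor receptor, was at 49.1, 48.2 and 54.9 against 50.0, 61.2 and 71.9 CPM (log2 fold change 0.27, adjusted p = 0.258). Adam15 was at 229, 192 and 177 against 187, 179 and 180 CPM, and Adam9 at 105, 125 and 130 against 108, 142 and 145 CPM. All 4 overlapped between the groups.

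The ADAMs without protease activity, which act in adhesion, were at low levels. Adam23 was at 0.363, 0.224 and 0.366 CPM in NaCl and 0.931, 0.821 and 0.366 CPM in H89-treated tumors. H89-treated tumor 3 was level with NaCl tumor 3 to the digits shown. Adam22 was at 0.755, 1.01 and 0.914 against 1.68, 1.22 and 1.16 CPM, and Adam11 at 0.720, 0.820 and 0.534 against 0.927, 1.12 and 0.731 CPM, whose groups overlapped. The log2 fold changes were 1.13, 0.59 and 0.41, and the adjusted p-values 0.169, 0.220 and 0.424. Adam1a, a gene of the sperm fertilin complex, was at 1.31, 1.58 and 1.38 against 3.43, 2.49 and 1.91 CPM (log2 fold change 0.88, adjusted p = 0.110), without overlap. Its exons overlap Gm42878 and Mapkapk5 on the same strand and Tmem116 on the other, and its estimated counts lay up to 0.488 from a whole number, so that reads may be shared between these genes.

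**Figure D5:**
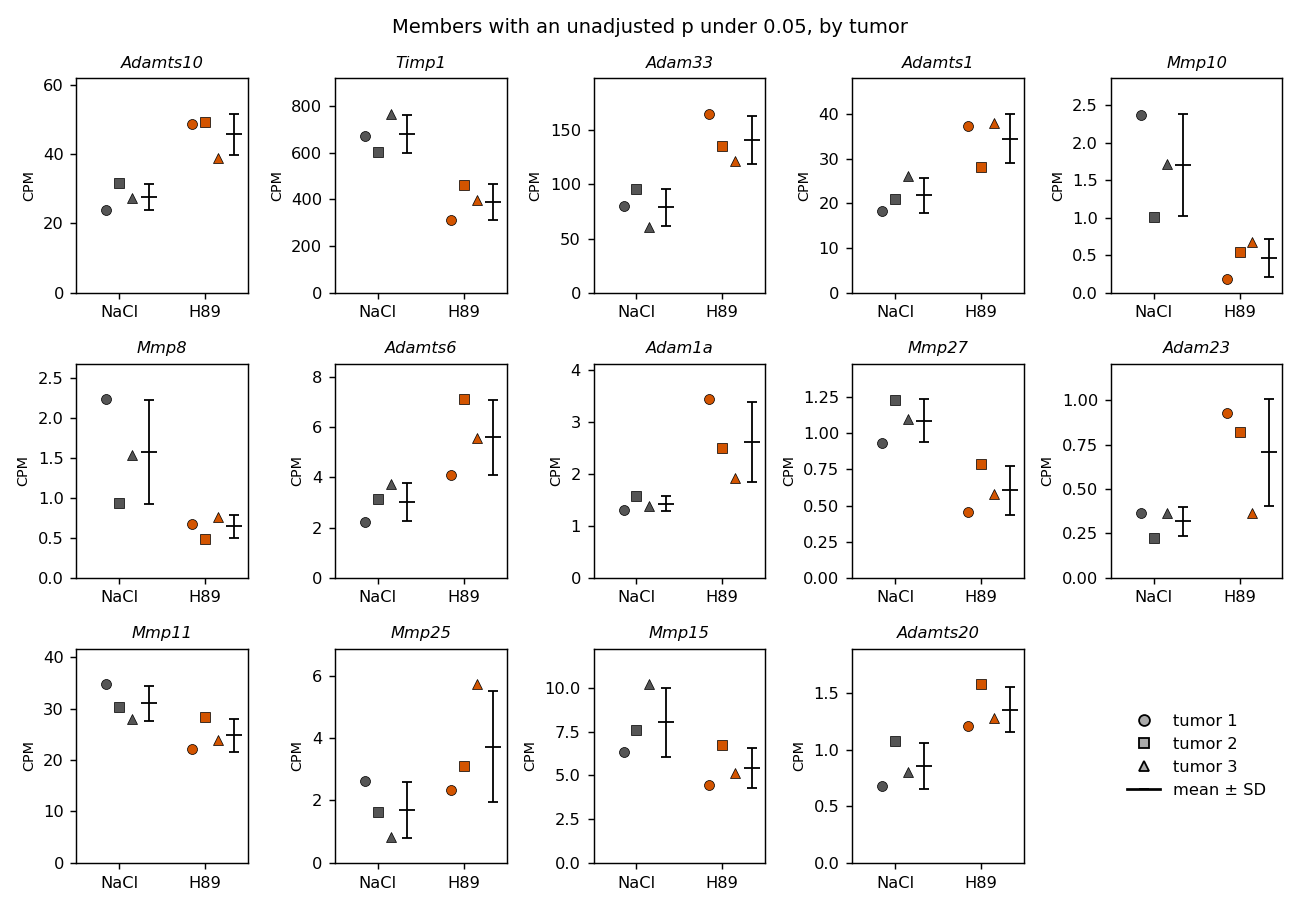
Level in CPM of the 14 genes with an unadjusted p under 0.05, for each tumor (circle, square and triangle for tumors 1 to 3) with the mean and SD of the group. Every NaCl tumor is on the same side of every H89-treated tumor for all genes shown other than Mmp11, Mmp25 and Mmp15, and for Adam23 tumor 3 of each group is level.

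In the ADAMTS family, Adamts10 (chromosome 17, 33524204 to 33553782, plus strand), a protease that binds fibrillin microfibrils and is mutated in Weill-Marchesani syndrome, was at 24.0, 31.6 and 27.2 CPM in NaCl tumors. In H89-treated tumors it was at 48.8, 49.3 and 38.9 CPM. All 3 lay above all NaCl tumors, and the means were 27.6 ± 3.85 and 45.7 ± 5.88 CPM (SD, n = 3 each). Adamts10 rose by 0.73 on the log2 scale, with a standard error of 0.14 and an adjusted p of 0.0488 by edgeR. The call was lost with any of the 6 tumors left out, where the adjusted p was 0.0768 to 0.149 and the log2 fold change 0.63 to 0.83. Over 15 alternatives the adjusted p ran from 0.000183 to 0.149 and was under 0.05 in 7.

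Further members of the family were higher in every H89-treated tumor without passing the threshold. Over all genes tested, 15.2% did not overlap in this direction. Adamts1, which cleaves the proteoglycans versican and aggrecan, was at 18.2, 21 and 26.1 against 37.3, 28.2 and 38.0 CPM (log2 fold change 0.66, adjusted p = 0.0800). Adamts6, a close relative of Adamts10, was at 2.23, 3.13 and 3.73 against 4.10, 7.11 and 5.56 CPM (log2 fold change 0.89, adjusted p = 0.108). Adamts20, which cleaves versican, was at 0.683, 1.08 and 0.804 against 1.21, 1.58 and 1.28 CPM. The aggrecanase Adamts5 was at 1.47, 1.12 and 1.02 against 1.60, 3.07 and 1.49 CPM. The log2 fold changes of the last pair were 0.66 and 0.77, with adjusted p-values of 0.186 and 0.211.

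Not all ADAMTS genes shared this direction. The aggrecanase Adamts4 was at 24.7, 21.7 and 31.8 CPM in NaCl tumors and at 4.97, 23.3 and 20.7 CPM in H89-treated tumors (log2 fold change -0.67, adjusted p = 0.407). H89-treated tumor 1 stood apart, and without it the log2 fold change was -0.24. The same tumor had a summed level of skeletal muscle markers of 24.6 CPM, against 2.55 to 4.03 CPM in all others. It was also the highest for the adipocyte markers Adipoq (1.5 CPM) and Cfd (7.45 CPM), though not for the sum of that list. Timp1, Mmp10 and Plaur were lowest and Adam33 was highest in this tumor, while Adamts10 was not. The part of these tissues in its values was not tested. The procollagen proteases Adamts14 (23.6 to 27 against 25.6 to 30.5 CPM) and Adamts2 (11.7 to 14.9 against 9.45 to 14.9 CPM) overlapped between groups.

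Fibroblast markers are given beside Adam33, a protease of mesenchymal cells, and Adamts10. Of 10 fibroblast markers, all tested, 3 were higher (Col1a2, Col3a1 and Dcn) and 1 lower (Pdpn) at an unadjusted p under 0.05, which 13.1% and 11.9% of all genes were, and none passed the adjusted threshold. Their summed level was 2679 to 2968 CPM in NaCl and 3003 to 3877 CPM in H89-treated tumors, without overlap. The log2 ratio of the mean sums was 0.32. The log2 fold changes of Adam33 and Adamts10, 0.84 and 0.73, are a different measure, fitted by edgeR to single genes. For 9 pericyte and smooth muscle markers the sums overlapped, at 133 to 161 against 138 to 168 CPM. The part of these cells in the values of Adam33 and Adamts10 was not tested. Of 7 epithelial markers 4 were tested, and the defining ones were near 0, Epcam at up to 1.18 and Vil1 and Cdx2 at up to 0.304 CPM. The most abundant, Krt18, was at 13.2, 13.4 and 23.5 against 8.31, 7.75 and 8.27 CPM (log2 fold change -1.04, adjusted p = 0.0653). The other 3 had log2 fold changes above 0, with Krt19 at 2.56, Krt8 at 1.03 and Cdh1 at 0.05. Their adjusted p-values by edgeR were 0.213, 0.487 and 0.953. Krt19, Krt8 and Epcam were each highest in H89-treated tumor 1. Krt19 passed the filter only through the H89-treated tumors, its NaCl mean being 0.168 CPM.

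Genes that activate, restrain or induce these proteases were taken from 7 lists with 60 genes, of which 47 were tested. No gene of these lists was called higher and 1 was called lower, Plaur, where 0.861% and 0.724% of all genes were. At the unadjusted threshold 5 were higher (10.6%) and 10 lower (21.3%), where 13.1% and 11.9% of all genes were. Plaur, the receptor that holds urokinase at the cell surface and so focuses plasmin, which activates pro-MMPs, was at 245, 223 and 238 CPM in NaCl tumors and at 143, 156 and 172 CPM in H89-treated tumors. It fell by 0.58 on the log2 scale with a standard error of 0.10 and an adjusted p of 0.0413 by edgeR, and the adjusted p was 0.0663 to 0.142 with any tumor left out. Its ligand Plau was at 99.5, 99.8 and 133 against 71.9, 109 and 120 CPM, and its groups overlapped.

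Of 11 factors that act on MMP promoters (AP-1 factors, ETS factors and Runx2), none was higher at the unadjusted threshold. At this threshold 4 (36.4%) were lower, as were 11.9% of all genes. The groups of these 4 did not overlap, as was the case for 15.5% of all genes in this direction. Fosl1 was at 381, 443 and 338 against 312, 267 and 260 CPM (log2 fold change -0.47, adjusted p = 0.0841). Etv4 was at 161, 167 and 154 against 119, 138 and 126 CPM (-0.33, adjusted p = 0.0827). The others were Ets2 and Junb, with log2 fold changes of -0.51 and -0.28. Fos and Jun overlapped, at 9.25 to 10.5 against 9.42 to 14.3 CPM and at 138 to 157 against 137 to 168 CPM.

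Of the other lists, the inhibitors Reck, a membrane protein that restrains MMPs, and Tfpi2 had log2 fold changes of 0.46 and 1.26, with adjusted p-values of 0.114 and 0.126. Tspan5, a tetraspanin partner of ADAM10, was at 51.8, 49.0 and 47.4 against 41.0, 37.7 and 40.8 CPM (adjusted p = 0.0841), while Tspan33, another such partner, was at 1.26, 1.34 and 0.955 against 2.36, 1.63 and 2.32 CPM. Of the inducers, Tgfb1 was at 161, 143 and 144 against 111, 124 and 121 CPM (log2 fold change -0.34, adjusted p = 0.0827), and Egf had a log2 fold change of 0.92 (adjusted p = 0.127). The convertases Furin and Pcsk6 had log2 fold changes of -0.29 and -0.71, and the ADAMTS-like genes Thsd4 and Adamtsl1 of -0.31 and 0.73. The adjusted p-values of these genes by edgeR were between 0.197 and 0.286. Adamtsl1, too, passed the filter only through the H89-treated tumors, its NaCl mean being 0.452 CPM.

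Among the members under the filter, Mmp16, a membrane-type MMP, had a group mean above 0.5 CPM in H89-treated tumors. Its estimated counts, rounded, were 7, 8 and 8 in NaCl and 15, 16 and 18 in H89-treated tumors, and in the fit without the filter its log2 fold change was 0.87 with an adjusted p of 0.235. The gene was chosen after its values were seen. Adam28 was at 0.416 against 0.503 CPM on average. In an exact two-sided permutation test, the members whose groups did not overlap gave p = 0.1, the smallest that the 10 splits of 6 tumors into 3 and 3 allow, so that test cannot reach 0.05 in this design.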

How the data were processed

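Total RNA of 6 tumors was sequenced by the authors on the BGISEQ-500 platform. The submitters' processing notes name kallisto, DESeq2 and the GRCm38 build, without versions. The values deposited by the authors are estimated counts, not scaled for library size or length, although the table is called TPM, since each tumor's values sum to far more than 1000000. Groups and tumor numbers came from the labels.

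The estimated counts were rounded. Genes with a mean of at least 0.5 CPM (13118) were compared by edgeR 4.0.16 (R 4.3.3; TMM, quasi-likelihood fit and F test with a single term for treatment), with Benjamini-Hochberg adjustment over all genes tested. Standard errors are |log2 fold change| over the root of the F statistic. The exact permutation test used log2(CPM + 0.5). Code was tested on simulated data. Positions, exon overlaps and lengths are those of GENCODE M21 on GRCm38, matched by symbol for 79 of the 80 members. Promoters were those of RefSeq for GRCm38.p6.

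The genes named are all tested Timp genes and, in each other family, the 6 with the smallest p and the 3 most abundant per kb; of each other list, those called or otherwise the 2 with the smallest p. Mmp12, Mmp13, Mmp2, Mmp9, Mmp16, Adam8, Adam10, Adam28, Adamts2 and the remaining genes outside this rule were chosen after their values were seen. The members and lists were chosen with earlier results of these data known. Alternatives were median ratio and quantile normalization, leaving out the filter, a stricter filter of 5 CPM, DESeq2 1.42.0, limma 3.58.1 with pseudocounts of 0.5, 0.1 and 1, a block for tumor number, and omission of each tumor. The study gives 3 mice a group; nothing says that the injected cells came from separate cultures, so p-values measure only the spread between these tumors. Counting error limits the genes near 0.5 CPM most, where a floor of 3 counts is about 0.1 CPM.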

Additional observations from a re-analysis of the deposited data

How the results depend on the processing

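Of 379 repeats of the named members' values under alternatives, 324 kept their direction and their side of an unadjusted p of 0.05, 40 kept the direction but lost that p, 5 gained it and 10 reversed. The reversals were Timp2 with quantile normalization (0.08), Timp3 without NaCl tumor 1 (0.21), H89-treated tumor 1 (0.18) or 2 (0.05), Mmp3 without NaCl tumor 3 (0.14) or H89-treated tumor 2 (0.01), Mmp14 without NaCl tumor 2 (-0.04) or H89-treated tumor 2 or 3 (-0.03 each), and Adamts14 without H89-treated tumor 3 (-0.01), all as log2 fold changes. With single tumors left out these ran from -0.42 to 0.21 for Timp3, -0.33 to 0.14 for Mmp3, -0.04 to 0.19 for Mmp14 and -0.01 to 0.13 for Adamts14.

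The number of genes called was 208, and 81 with quantile normalization, 1393 with DESeq2 and 0 with the tumor number as a block. With single tumors left out it was 0 to 12. The members called higher were 1, and 0 with quantile normalization or the block, 2 without the filter (Adamts10 and Adam33), 4 with DESeq2 and 0 to 0 with single tumors left out. The members called lower were 0, and 1 without the filter and in each limma fit (Timp1) and 2 with DESeq2 (Timp1 and Mmp10). DESeq2 thus called 6 members (14.0%), and 10.6% of all genes. At an unadjusted p under 0.05, 4 members were higher with quantile normalization and 3 at a mean of at least 5 CPM. With single tumors left out, 5 to 8 were higher. Members lower at this p were 1 at 5 CPM and 3 to 7 with single tumors left out. At 5 CPM Mmp8, Mmp10 and Mmp27 are not tested, while Mmp11 and Mmp15 still are. The Timp median was -0.42 without H89-treated tumor 3 (range -0.42 to -0.06). The causes of the other changes were not tested.

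Correlations of same-numbered tumors' deviations from their group means were 0.163, 0.0614 and -0.0251. Not every tumor correlated best with its own number. With 3 tumors a group the deviations are bound to each other, so this check cannot decide whether tumor numbers pair the samples. Unadjusted calls split 1719 higher to 1566 lower, and 1297 to 1452 with quantile normalization, and adjusted calls 113 to 95 and 55 to 26.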
